A study of Homo sapiens with 40 samples.

Results

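The amino acid transporters described here were SLC7A11 and 9 further plasma membrane carriers, SLC3A2, SLC7A5, SLC7A1, SLC7A3, SLC1A4, SLC1A5, SLC38A1, SLC38A2 and SLC6A9. They were picked by name because SLC7A11 had been seen to be induced by OL9-119, so their response to OL9-119 is described here without a test. All 10 were found among the 58395 genes listed, and all 10 had at least 10 counts in sum over the libraries, which was the filter for testing. Poly(A) RNA was sequenced from HEK293A cells, an established human embryonic kidney line, either wild type (WT) or carrying a PARP1 knockout (PARP1-KO). The knockout was 1 clone made by CRISPR/Cas9 deletion, so the clone and the loss of PARP1 cannot be told apart. Cells of each genotype were left untreated, or were given for 5 to 5.5 h 0.1% DMSO, topotecan (Tpc) with 0.1% DMSO, 5 µM OL9-119 dissolved in 0.1% DMSO, or Tpc together with 5 µM OL9-119. Tpc is a poison of topoisomerase 1, and OL9-119 is an inhibitor of TDP1, the enzyme that removes trapped topoisomerase 1 from DNA. The dose of Tpc was 100 nM in WT and 50 nM in PARP1-KO cells, so genotype and dose cannot be told apart in the Tpc groups. Each of the 10 groups had 4 libraries, which the labels call biological and the study's methods call technical replicates, so the p-values measure only the spread between these libraries.

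SLC7A11 is the transport chain of system xc-, which brings cystine into the cell in exchange for glutamate and so feeds glutathione synthesis. It works only as a heterodimer with the heavy chain SLC3A2 (4F2hc, CD98), a partner it shares with SLC7A5 (LAT1), the exchanger of large neutral amino acids such as leucine. Among the other members, SLC7A1 (CAT1) and SLC7A3 (CAT3) carry cationic amino acids, SLC1A4 (ASCT1) and SLC1A5 (ASCT2) exchange small neutral amino acids, SLC38A1 and SLC38A2 (SNAT1 and SNAT2) take up glutamine and other neutral amino acids with sodium, and SLC6A9 (GLYT1) takes up glycine. Several of these genes are known targets of ATF4, the transcription factor that is translated when amino acids are short or the endoplasmic reticulum is stressed, and SLC7A11 is also a known target of NRF2, the factor of the oxidative stress response.

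The libraries held 3455043 to 20379777 counts (median 10656829). PARP1 itself lay between 737 and 887 CPM (counts scaled to library size with TMM factors) in the 20 WT libraries and between 30.4 and 46.6 CPM in the 20 PARP1-KO libraries. Keratin and neurofilament markers known from HEK293 cells were present in every library (KRT18 at 189 to 514 CPM, NEFL at 228 to 364 CPM), and PTPRC, CD3E, LYZ, ALB and CDH5, markers of blood, liver and endothelial cells, stayed at or below 1.68 CPM. The fibroblast collagen COL1A1 lay at 9.1 to 43 CPM, and the kidney factor PAX2 at 0.0979 to 12.1 CPM. The summed level of the markers of other cell types ran from 14.8 to 44.7 CPM in WT and from 9.1 to 19.1 CPM in PARP1-KO libraries, and its part in the differences between genotypes was not tested. When every library was thinned to 3455043 counts, 11 of the 40 libraries held fewer than 19000 detected genes, 9 of them WT and 2 of them PARP1-KO, and the main comparisons are also given without them below. These were WT untreated replicates 1 and 3, WT DMSO replicates 1, 2 and 3, WT Tpc replicate 2, WT OL9-119 replicate 2, WT Tpc + OL9-119 replicates 1 and 2, PARP1-KO untreated replicate 1 and PARP1-KO Tpc replicate 1. Without them 2 untreated WT, 1 WT DMSO, 3 WT Tpc, 3 WT OL9-119 and 2 WT Tpc + OL9-119 libraries remained, and 3 or 4 in each PARP1-KO group.

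Several promoters of these genes held the core letters of an element that binds ATF4 dimers, and those sites are printed to show which members carry it. No relation to the expression changes below was tested. RefSeq promoter windows of 300 bases (GRCh38.p14) were present for 8 of the 10 members, 14 windows in all. SLC7A11 and SLC7A3 had no window, so neither was searched. Both strands were searched for TGATGNAA. The letters were found in windows of 5 of these 8 genes (62.5%), against 4.46% of 27305 genes with a window, 2.86% of the other amino acid transporters with one and 23.8% of the non-transporter ATF4 response genes with one. Each stretch below is 30 bases, read 5′ to 3′ on the strand of its gene, with the match in capitals.
SLC3A2: gtaatgtgcaggactccTTACATCAgctcc
SLC7A1: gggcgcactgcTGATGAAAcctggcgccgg
SLC1A4: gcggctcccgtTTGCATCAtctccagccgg
SLC1A5: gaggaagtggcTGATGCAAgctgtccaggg
SLC38A1: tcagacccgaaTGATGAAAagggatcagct
CHAC1: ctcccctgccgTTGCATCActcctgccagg
The SLC3A2 stretch lies at chr11:62881719-62881748 on the plus strand, that of SLC7A1 at chr13:29595663-29595692 on the minus strand and that of SLC1A4 at chr2:64989381-64989410 on the plus strand. The SLC1A5 stretch is at chr19:46784893-46784922 and the SLC38A1 stretch at chr12:46266502-46266531, both on the minus strand. CHAC1, a glutathione-degrading enzyme and ATF4 response gene shown for comparison, has its match at chr15:40953251-40953280 on the plus strand. It was searched as 1 of the 5 genes closest to SLC7A11 by correlation, given below. The others, BLTP3A, MTHFD2, ULBP1 and SESN2, had 1 window each and no match to these letters. The matches in SLC7A1, SLC1A4 and SLC38A1 begin within 8 bases of an annotated transcription start. For SLC7A1 this is the outer start of the gene. The starts next to the matches of SLC3A2, SLC1A4, SLC1A5 and SLC38A1 lie inside the annotated gene. SLC3A2, SLC1A4 and CHAC1 carry the letters in the reverse direction. The letters TGACNNNGC of the antioxidant response element, to which NRF2 binds, were found on either strand in 50% of the 8 members and in 16.1% of all genes with a window. The share for these letters was 38.1% of ATF4 response genes, 33.3% of NRF2 response genes and 14.3% of other amino acid transporters with a window. The 8 members had 14 windows, and all 27305 genes had 35116. Per window the share was 28.6% in members against 13.3% overall for these letters, and 35.7% against 3.62% for the ATF4 letters. A match describes the letters only, and binding was not measured.

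SLC7A11 (ENSG00000151012, chr4:138164097-138242349, minus strand) was a gene of low level in untreated WT cells. Its 4 untreated WT libraries held 7.34, 13.5, 10.3 and 16.7 CPM, and the 4 PARP1-KO libraries held 24.8, 22.8, 25.2 and 27.8 CPM. The groups did not overlap, and every PARP1-KO library was higher than every WT library. In WT cells OL9-119 gave 80, 55.9, 97.7 and 103.7 CPM, and Tpc + OL9-119 gave 64.1, 36.8, 77.3 and 82.9 CPM. In both groups all 4 libraries lay above the highest WT library of the 3 groups without OL9-119, which was 25.7 CPM. PARP1-KO cells given OL9-119 held 37.9, 30.5, 39.2 and 36.5 CPM, which was above all other PARP1-KO libraries, while with Tpc + OL9-119 they held 21, 18.1, 24.3 and 25.2 CPM.

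**Figure D1:**
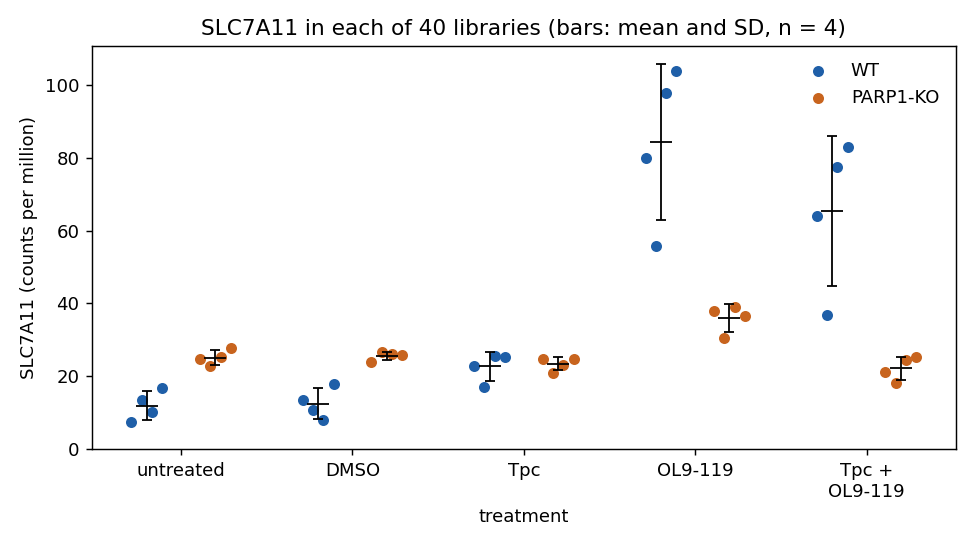
SLC7A11 in CPM (y axis) in each of the 40 libraries by treatment (x axis), WT in blue and PARP1-KO in orange, with 4 points a group and bars for the mean and SD. WT cells started lower than PARP1-KO cells (12 against 25.1 CPM untreated) and ended higher under OL9-119 (84.3 against 36 CPM) and under the combination (65.3 against 22.2 CPM).

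Ordered by mean, SLC7A11 was at 84.3 ± 21.5 CPM (SD, n = 4) in WT cells with OL9-119, at 65.3 ± 20.6 CPM in WT cells with Tpc + OL9-119 and at 36 ± 3.85 CPM in PARP1-KO cells with OL9-119. Then came a plateau of 5 groups, namely WT cells given Tpc and the PARP1-KO cells of every treatment except OL9-119 alone, whose means lay between 22.2 and 25.6 CPM and whose neighbours differed by less than the larger of their SDs. WT cells with DMSO (12.5 ± 4.25 CPM) and untreated WT cells (12 ± 4.06 CPM) were the lowest, and they too differed by less than their spread. The 2 highest groups also overlapped. Read as a ratio of group means, untreated PARP1-KO cells had 2.1 times the SLC7A11 of WT cells, and 1.03 times under Tpc. The WT level was 2.34 times that of PARP1-KO cells under OL9-119 and 2.94 times under the combination.

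Without treatment, the PARP1-KO clone had a higher level of 5 of the 10 transporters and a lower level of 1. These counts are from edgeR's quasi-likelihood test with Benjamini-Hochberg adjustment over 28922 genes and a threshold of 0.01, by which 11.7% of all genes were called, 5.97% as higher and 5.74% as lower. SLC7A11 was higher by 1.08 ± 0.22 on the log2 scale (SE, adjusted p = 1.2e-04). The glutamine carriers SLC38A2 (0.87 ± 0.12, adjusted p = 9.39e-08) and SLC38A1 (0.82 ± 0.14, adjusted p = 5.06e-06), which lie near each other on chromosome 12, were higher too. The cationic carrier SLC7A1 was higher by 0.79 ± 0.14 (adjusted p = 1.4e-05) and the glutamine exchanger SLC1A5 by 0.48 ± 0.10 (adjusted p = 0.000366). For these 5 genes, as for SLC1A4, the 4 PARP1-KO and 4 WT libraries did not overlap.

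SLC1A4 went the other way. Its untreated WT libraries held 56.1, 67.8, 60.1 and 58 CPM against 32.6, 35.2, 40 and 46 CPM in PARP1-KO cells, a difference of -0.65 ± 0.15 on the log2 scale (adjusted p = 0.000768). SLC1A4 stayed below the WT level under every treatment in PARP1-KO cells, with group means of 38.5 to 47.5 CPM against 57.8 to 97.8 CPM. The heavy chain SLC3A2 had a fitted log2 difference of 0.06 (95% interval -0.17 to 0.29, adjusted p = 0.79), SLC7A5 one of 0.36 (adjusted p = 0.136) and SLC6A9 one of 0.35 (adjusted p = 0.527).

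With DMSO in both genotypes, 7 transporters were called higher in PARP1-KO cells and 1 lower, where 12.4% of all genes were called, 6.67% as higher and 5.75% as lower. SLC7A5 (0.83 ± 0.17, adjusted p = 0.000163) and SLC6A9 (1.53 ± 0.39, adjusted p = 0.00235) joined the 5 named above, and SLC7A11 was higher by 1.05 ± 0.22 (adjusted p = 1.96e-04). In SLC6A9, WT DMSO replicate 3 held 0 counts, and in that library 38 of 1696 genes with an untreated WT mean of 6 to 13 CPM (2.24%) were also at 0, against 0 to 3 of them in the other 3 WT DMSO libraries. Without the 11 libraries of low complexity, the untreated comparison still called 5 members higher and 1 lower, and the difference in SLC7A11 was 0.72 (adjusted p = 0.000412). Of 28057 genes tested, 4046 were called in that fit. The DMSO comparison, which then rested on 1 WT library assumed to vary like the other groups, called 3 higher and 1 lower, and SLC7A11 (0.51, adjusted p = 0.11), SLC7A5 (0.34, adjusted p = 0.139), SLC1A5 (0.40, adjusted p = 0.0216) and SLC6A9 (0.19, adjusted p = 0.761) were no longer called. Leaving out single libraries, SLC1A4 lost its call there without WT DMSO replicate 2 or 4 or any 1 of the PARP1-KO DMSO libraries (adjusted p between 0.0145 and 0.0892), and SLC6A9 lost it without WT DMSO replicate 2 (adjusted p = 0.0149).

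SLC3A2 lies in a part of chromosome 11 where most genes were lower in PARP1-KO cells. Of 199 genes with a mean of at least 1 CPM that start within 5 Mb of it, 178 had a lower fitted level in untreated PARP1-KO cells, with a median log2 difference of -0.66, and over the 854 such genes of chromosome 11 the median was -0.49 against 0.04 over 14417 genes of other chromosomes. With DMSO, 173 of the 199 neighbours were lower, with a median of -0.67. SLC3A2 itself held 421, 405, 304 and 359 CPM in untreated WT cells and 327, 446, 386 and 393 CPM in untreated PARP1-KO cells. The WT and PARP1-KO libraries overlapped, and whether SLC3A2 differs from its neighbours was not tested.

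DMSO alone changed none of the 10 transporters by edgeR's test or by DESeq2 in either genotype. Over all genes edgeR called 0% in each genotype, while DESeq2 called 15 for the WT comparison and 0 for the other. At an unadjusted p below 0.05 there were 2 members in WT and 0 in PARP1-KO cells. SLC7A11 differed from untreated cells by 0.07 ± 0.22 in WT and 0.03 ± 0.21 in PARP1-KO cells on the log2 scale. For SLC6A9 the fitted log2 change with DMSO in WT cells was -1.37 (95% interval -2.14 to -0.61, edgeR adjusted p = 0.239). Its WT DMSO replicate 3 held 0 counts.

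Tpc raised SLC7A11 and SLC7A1 in WT cells, 2 of the 10 members, where 0.857% of all genes were called. SLC7A11 rose to 23, 17, 25.7 and 25.4 CPM, by 0.94 ± 0.22 on the log2 scale (adjusted p = 0.00855), and did not overlap with untreated cells. SLC7A1 rose from 93.6, 137, 119 and 160 CPM to 208, 153, 206 and 223 CPM, by 0.63 ± 0.14 (adjusted p = 0.00439), with 1 Tpc library inside the untreated range. SLC3A2 had a fitted change of 0.43 (adjusted p = 0.033), and its 473 to 523 CPM with Tpc lay above all untreated WT libraries. Against DMSO-treated cells, where 0.985% of all genes were called, SLC7A1 kept its call (0.80 ± 0.14, adjusted p = 1.36e-04) and SLC7A11 lost it (0.87 ± 0.22, adjusted p = 0.0171). Neither gene was called without WT untreated replicate 1 or 3 or without WT Tpc replicate 1, 3 or 4, nor with only the compared libraries fitted (adjusted p = 0.176 for SLC7A11 and 0.109 for SLC7A1). Without those single libraries adjusted p lay between 0.0292 and 0.0893 for SLC7A11 and between 0.0193 and 0.0611 for SLC7A1, and both were called without the 11 libraries of low complexity (adjusted p = 0.00655 and 0.000554).

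In PARP1-KO cells at the lower dose, Tpc changed 0 of the 10 members by edgeR or by DESeq2, with 0 at an unadjusted p below 0.05. Over all genes edgeR called 0.0138%, and DESeq2 called 15 genes. The fitted log2 change of SLC7A11 was -0.10 (95% interval -0.51 to 0.31). The test of the difference between the genotypes called 0 of the 10 members by either tool, with 3 at an unadjusted p below 0.05. Over all genes edgeR called 0.1%, 0.0173% with the higher and 0.083% with the lower change in PARP1-KO cells. SLC7A1 came nearest (-0.82 ± 0.20, adjusted p = 0.0598), and it was called with DMSO-treated cells as the comparator (-1.04, adjusted p = 0.00166), where 0.173% of all genes were called, or without WT untreated replicate 4 (-0.95, adjusted p = 0.00985).

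Tpc + OL9-119 raised 6 of the 10 transporters in WT cells and lowered none, where 4.07% of all genes were called, 2.07% as higher. The members were chosen on the response to OL9-119 alone, with earlier results of these data known. The combination holds the same 5 µM OL9-119, and the untreated libraries are those of the OL9-119 comparison. These calls are therefore not independent of that choice. SLC7A11 led with a log2 change of 2.45 ± 0.22 (adjusted p = 9.94e-13), 5.48-fold, and its call held without each of the 8 libraries in turn (2.26 to 2.65). DESeq2 called 7 members, with 1771 genes called in all. Without the 11 libraries of low complexity, which left 2 libraries in each group, 7 were called as well, with 628 of 28057 genes called in all. The changes of the 6 were then 2.40 for SLC7A11, 0.79 for SLC7A1, 0.68 for SLC3A2, 0.65 for SLC38A2, 0.58 for SLC1A4 and 0.57 for SLC7A5.

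Both chains of the leucine exchanger were higher. SLC3A2 held 495, 596, 638 and 597 CPM with the combination, above the highest untreated library at 421 CPM, a rise of 0.64 ± 0.12 (adjusted p = 1.17e-04). SLC7A5 rose by 0.66 ± 0.17 (adjusted p = 0.00647), from 87.2, 140, 75.1 and 140 CPM to 157, 126.1, 217 and 202 CPM, and the groups overlapped. Its call was lost without WT untreated replicate 1 or 3 or WT Tpc + OL9-119 replicate 3 or 4 (adjusted p between 0.0409 and 0.0716), and with only the compared libraries fitted (adjusted p = 0.0741).

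The remaining 3 members called higher were carriers of cationic and small neutral amino acids. SLC38A2, the glutamine carrier known to respond to amino acid shortage, held 315, 406, 366 and 487 CPM untreated and 714, 670, 658 and 757 CPM with the combination, a rise of 0.83 ± 0.12 (adjusted p = 1.38e-06). SLC7A1 reached 212, 195, 274 and 244 CPM (0.86 ± 0.14, adjusted p = 1.49e-05) and SLC1A4 a mean of 94.6 ± 8.41 CPM (SD, n = 4) with a lowest library of 87.3 CPM, by 0.65 ± 0.15 (SE, adjusted p = 0.0022). None of these 3 overlapped with untreated cells. SLC1A4 lost its call without WT untreated replicate 1 (adjusted p = 0.0162) or WT Tpc + OL9-119 replicate 2 (adjusted p = 0.0101), and with only the compared libraries fitted (adjusted p = 0.021).

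SLC6A9, the glycine carrier, missed the threshold narrowly, although its groups were apart, and whether it was called depended on the setting. It held 6.82, 6.03, 12.5 and 8.99 CPM untreated and 22.3, 18, 20.2 and 26.4 CPM with Tpc + OL9-119 (1.33 ± 0.36, adjusted p = 0.0116). It passed against DMSO-treated cells (2.71 ± 0.39, adjusted p = 1.28e-06), where the other 6 passed too and 3.38% of all genes were called, 1.84% as higher. It also passed without the 11 libraries of low complexity (1.61, adjusted p = 6.62e-06), which left 2 libraries in each group. Of the 8 fits with 1 library left out, 1 called SLC6A9, that without WT untreated replicate 3 (adjusted p = 0.00697). The largest adjusted p of SLC6A9 among these 8 was 0.0511. DESeq2 called it (adjusted p = 0.00199), as did the fits with no filter (3.76e-04), the library name prefix as batch (0.00771), length and GC offsets (0.00794), the number of detected genes as a covariate (0.00851) and the replicate block (0.00912), all adjusted p. SLC1A5 (0.27, adjusted p = 0.0934) and SLC38A1 (0.24, adjusted p = 0.307) were not called. The median change was 0.66 over the 9 members other than SLC7A3 and 0 over all genes tested.

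**Figure D2:**
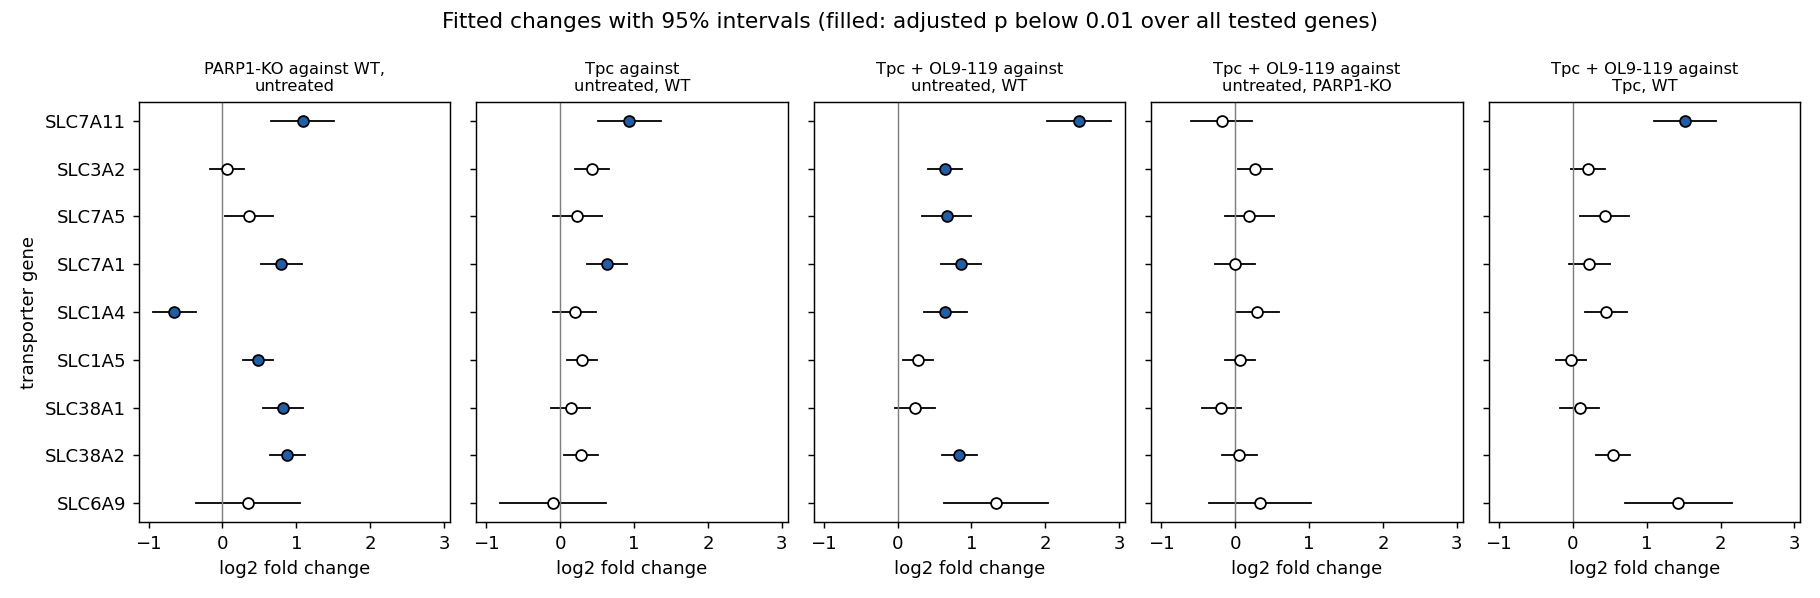
Fitted log2 fold changes (x axis) of 9 transporters (y axis) in 5 comparisons, with 95% intervals as lines and filled points where the adjusted p was below 0.01 over all genes tested. SLC7A11 moved most in the 2 WT comparisons with the combination (2.45 and 1.52), and no point is filled for the combination in PARP1-KO cells.

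The same treatment with the lower dose of Tpc changed 0 of the 10 transporters in PARP1-KO cells by edgeR or by DESeq2, with 2 at an unadjusted p below 0.05. Over all genes edgeR called 0%, and DESeq2 called 1 gene. The fitted log2 change of SLC7A11 was -0.18 (95% interval -0.59 to 0.23). For SLC38A2 it was 0.06 (95% interval -0.18 to 0.29) and for SLC3A2 0.27 (95% interval 0.04 to 0.50). The level of SLC38A2 in PARP1-KO cells, 772, 724, 718 and 783 CPM with the combination, was near its untreated level of 734, 689, 712 and 746 CPM, which was already that of WT cells under the combination.

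The change with Tpc + OL9-119 was smaller in PARP1-KO than in WT cells for SLC7A11 (a log2 difference of -2.63 ± 0.30, adjusted p = 9.7e-09) and for SLC38A2 (-0.77 ± 0.17, adjusted p = 0.00973), 2 of the 10 members against 0.27% of all genes, 0.201% with the lower and 0.0692% with the higher change in PARP1-KO cells. This difference includes the WT change with the combination, so its calls too are not independent of the choice of the members by their response to OL9-119. The call of SLC7A11 held without each of 16 libraries in turn. That of SLC38A2 held only when WT untreated replicate 4 was the library left out (adjusted p = 0.00112) and was lost without any other of the 16 (adjusted p between 0.0112 and 0.0454). SLC7A1 had a difference of -0.85 (adjusted p = 0.0167), which was called with DMSO-treated cells as the comparator (-1.07, adjusted p = 5.19e-04), where 0.432% of all genes were called, by DESeq2 (adjusted p = 0.00151) and without WT untreated replicate 4 (adjusted p = 0.00251). Without the 11 libraries of low complexity, 3 members were called, SLC7A11 (-2.59), SLC38A2 (-0.59, adjusted p = 0.00711) and SLC7A1 (-0.83, adjusted p = 3.87e-05).

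Adding OL9-119 to Tpc raised SLC7A11 in WT cells by a further 1.52 ± 0.21 on the log2 scale (adjusted p = 4.5e-06), 2.87-fold. This comparison shares no library with that of OL9-119 alone against untreated cells. It measures the same compound for which SLC7A11 was chosen, so it is not independent of that choice. SLC7A11 was the only member called, where 0.18% of all genes were, 0.118% as higher and 0.0622% as lower. Its call held without each of the 8 libraries in turn. SLC38A2 (0.55, adjusted p = 0.0141), SLC6A9 (1.43, adjusted p = 0.072) and SLC1A4 (0.45, adjusted p = 0.237) were not called, although their Tpc and Tpc + OL9-119 libraries did not overlap. SLC6A9 held 9.32, 4.35, 9.28 and 9.28 CPM with Tpc. Without the 11 libraries of low complexity, 4 members were called, SLC7A5 (0.58), SLC38A2 (0.50) and SLC6A9 (1.28) beside SLC7A11 (1.68). In that fit 70 of 28057 genes were called.

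In PARP1-KO cells, adding OL9-119 to Tpc changed 0 of the 10 members by edgeR or by DESeq2, with 0 at an unadjusted p below 0.05. Over all genes edgeR called 0%, and DESeq2 called 1 gene. The difference between the genotypes in this step was -1.60 ± 0.30 for SLC7A11 (adjusted p = 0.0106), which was not called, 0 of the 10 members were, and 3 had an unadjusted p below 0.05, with 0.00692% of all genes called, 0.00346% in either direction. SLC7A11 was called by DESeq2 (-1.62, adjusted p = 3.02e-04), without WT Tpc + OL9-119 replicate 2 (-1.77, adjusted p = 5.55e-04) and without the 11 libraries of low complexity (-1.74, adjusted p = 2.36e-08). This difference includes the WT change with OL9-119 added, so it is not independent of the choice of SLC7A11.

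For OL9-119 alone, the response of which led to the choice of these genes, values are given with no test. In WT cells 9 of the 10 members had a higher fitted level than untreated cells, with log2 changes of 2.83 for SLC7A11, 1.31 for SLC6A9, 0.94 for SLC7A1, 0.93 for SLC7A5, 0.89 for SLC38A2, 0.69 for SLC1A4, 0.65 for SLC3A2, 0.35 for SLC38A1 and 0.31 for SLC1A5. Against DMSO-treated WT cells, the solvent control, SLC6A9 had a change of 2.68, 6.42-fold against 2.48-fold over untreated cells, SLC7A5 one of 1.25 and SLC7A11 one of 2.76. In PARP1-KO cells SLC7A11 had a change of 0.52, and the others apart from SLC7A3 lay between -0.14 and 0.21. SLC7A1 in WT cells held 268, 185, 263 and 263 CPM, with replicate 2 below the rest, and replicate 2 was also the lowest WT OL9-119 library in SLC7A11, SLC7A5, SLC38A1, SLC38A2 and SLC6A9. It was 1 of the 11 libraries of low complexity, and without these the change of SLC7A11 in WT cells was 2.63.

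**Figure D3:**
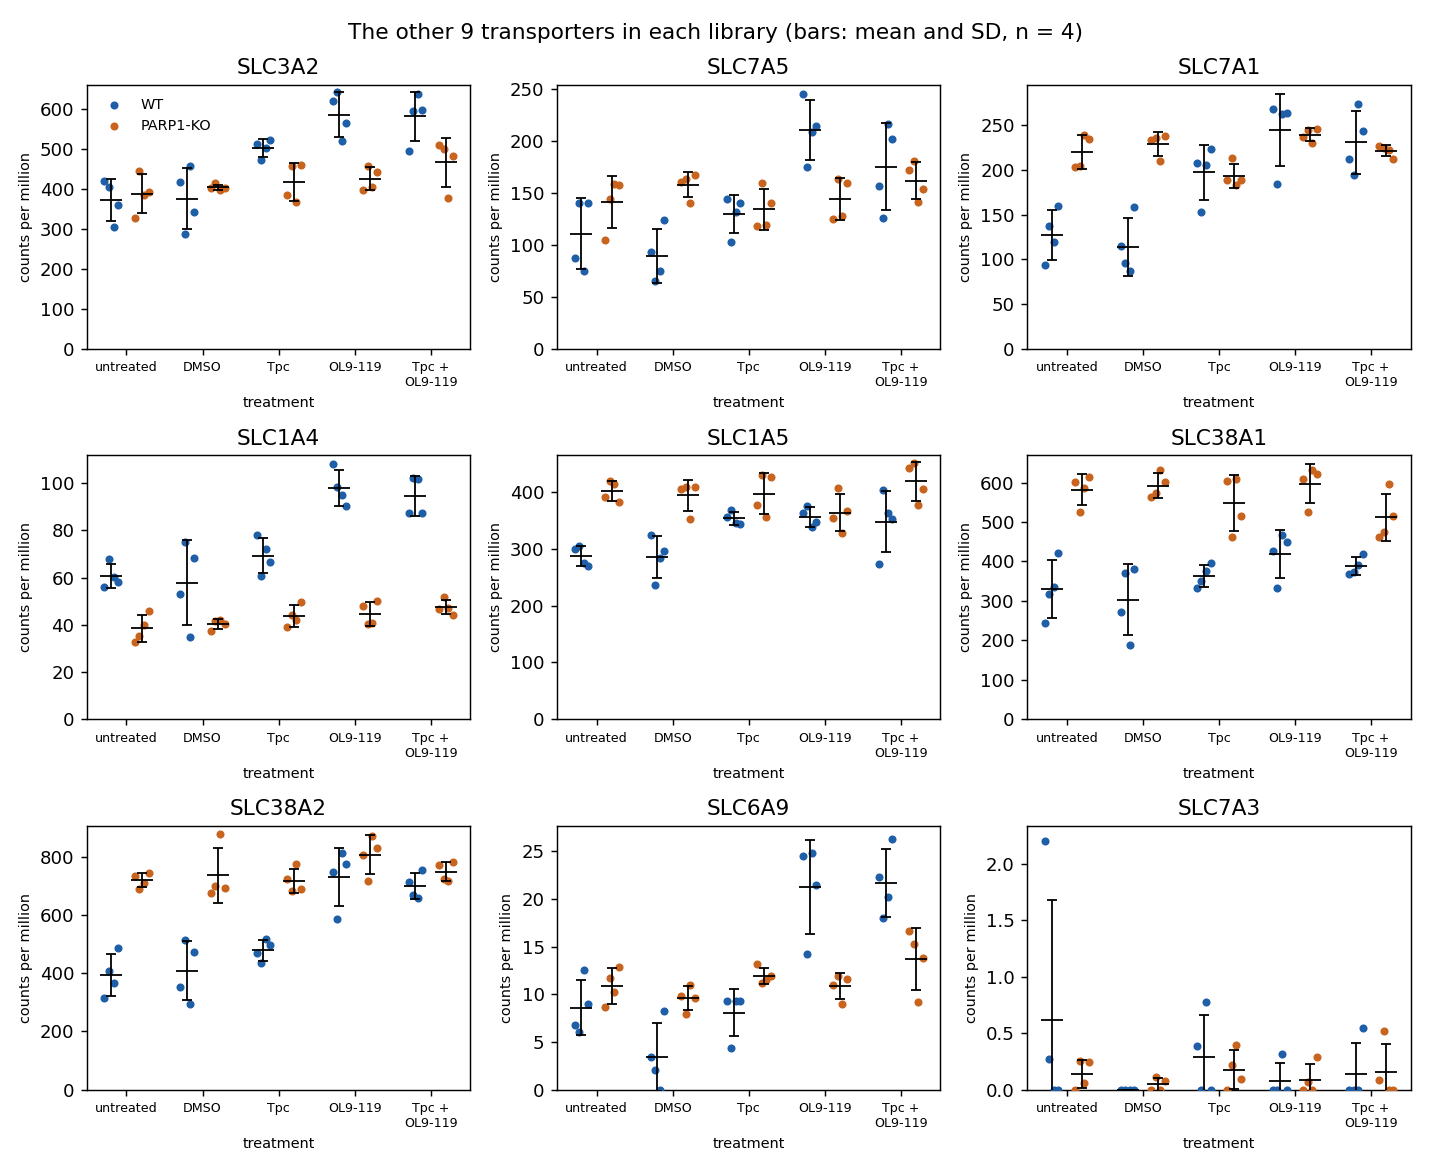
CPM (y axis, each panel with its own scale from 0) of the other 9 transporters in each library by treatment (x axis), WT in blue and PARP1-KO in orange, with bars for the mean and SD of 4 libraries. SLC38A2 and SLC38A1 were higher in PARP1-KO cells from the start (720 against 393 CPM and 582 against 330 CPM untreated), SLC1A4 was lower throughout, and SLC7A3 stayed at or below 2.2 CPM.

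SLC7A3 could not be followed in these cells. It was listed at 0 counts in 22 of the 40 libraries and had 80 counts in all, 30 of them in WT untreated replicate 1, so no fold change is given for it. It passed the filter for testing only through its sum over the libraries and was called in no comparison.

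On a scale corrected for gene length (RPKM, the CPM divided by the exon length in kilobases), SLC7A11 and SLC6A9 had the lowest levels among the 9 members other than SLC7A3. In untreated WT cells SLC1A5 was at 86.5, SLC38A2 at 60.4, SLC3A2 at 58.3, SLC38A1 at 32.9, SLC7A5 at 23.2 and SLC7A1 at 16.6 RPKM, and SLC7A11 was at 1.24 RPKM, near SLC6A9 at 1.64 RPKM. As a percentage of the length-corrected level of their shared heavy chain SLC3A2, SLC7A11 was at 2.17% ± 0.79 (SD, n = 4) in untreated WT cells, 2.99% ± 0.44 under Tpc, 9.74% ± 3.19 under OL9-119 and 7.48% ± 2.31 when both were given. The PARP1-KO means ran from 3.22% under the combination to 5.65% under OL9-119. SLC7A5 was at 32.7% to 48.6% of SLC3A2 in WT and 43.1% to 52.4% in PARP1-KO groups, so the transcript of the leucine exchanger exceeded that of the cystine carrier in every group.

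Of 43 other amino acid transporter genes, 36 were tested. With Tpc + OL9-119 in WT cells, where 2.07% of all genes were called higher and 2% lower, 0 of the 36 were called higher and 1 lower, SLC38A10 (-0.75 ± 0.17, adjusted p = 0.00219), with 3 of the 36 at an unadjusted p below 0.05, 1 called by DESeq2 and a median change of -0.01. Tpc called 0 of the 36 in WT cells by either tool, with 6 at an unadjusted p below 0.05. Between the untreated genotypes, where 5.97% of all genes were called higher and 5.74% lower in PARP1-KO cells, 2 of the 36 were higher and 1 lower, namely the glutamate transporter SLC1A3 (0.86, adjusted p = 1.36e-04), the neutral amino acid carrier SLC43A2 (1.18, adjusted p = 0.00807) and SLC38A10 (-1.20, adjusted p = 2.21e-07). With DMSO they were SLC1A3 (0.96) as higher and SLC38A10 (-1.34) and SLC43A1 (-1.22) as lower.

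Of 27 ATF4 response genes that are not transporters, 19 were called higher and 0 lower in WT cells with Tpc + OL9-119, with a median log2 change of 1.02. Over all genes 2.07% were called higher and 2% lower. This list, like the other gene lists here, was drawn up with earlier results of these data known. The combination holds OL9-119 and shares the untreated libraries, so these counts are not independent of those results. The 4 with the largest changes were CHAC1 (2.96 ± 0.39, adjusted p = 1.59e-07), the stress transcription factors ATF3 (1.83 ± 0.11, adjusted p = 7.24e-20) and DDIT3 (1.72 ± 0.18, adjusted p = 4.63e-10), and the secreted glycoprotein STC2 (1.46 ± 0.12, adjusted p = 3.19e-14). Against Tpc, 12 of the 27 were called higher, where 0.118% of all genes were, led by CHAC1 (1.98), CTH (1.54), DDIT3 (1.30) and DDIT4 (1.22). Tpc alone raised 3 of the 27 in WT cells, where 0.553% of all genes were called higher, namely ATF3 (1.81), CEBPG (0.65) and MTHFD2 (0.49). In PARP1-KO cells the combination changed 0 of the 27 by edgeR or by DESeq2, with 3 at an unadjusted p below 0.05. The difference between the genotypes was called for 9, all with the smaller change in PARP1-KO cells. Over all genes 0.201% were called with the lower change there. The 9 were led by ATF3 (-1.66), DDIT3 (-1.51), STC2 (-1.32) and DDIT4 (-1.14). Untreated PARP1-KO cells had 14 of the 27 higher and 2 lower than WT cells, led by NUPR1 (1.86), DDIT3 (1.86), ATF3 (1.68) and DDIT4 (1.51). Over all genes 5.97% were higher and 5.74% lower. With DMSO the counts were 15 and 1, led by CHAC1 (3.29), ATF3 (1.90), CEBPB (1.72) and DDIT4 (1.72), against 6.67% and 5.75% of all genes.

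NRF2 response genes were measured next to these because SLC7A11 is a target of both factors. Of 20 that are not transporters of amino acids, 0 were called higher and 1 lower in WT cells with Tpc + OL9-119, against 2.07% and 2% of all genes. The 1 called lower was the pentose phosphate enzyme TALDO1 (-0.55 ± 0.13, adjusted p = 0.00384). Of the 20, 8 had an unadjusted p below 0.05, and their median was -0.31 over all 20. DESeq2 called 1 higher and 2 lower, with 1771 genes called in all. Outside the rule for named genes and chosen after their values were seen, the glutathione synthesis subunit GCLM had a change of -0.03 (adjusted p = 1) and the quinone reductase NQO1 one of -0.93 (adjusted p = 0.137). Untreated PARP1-KO cells had 3 of the 20 higher and 3 lower, against 5.97% and 5.74% of all genes, among them ABCC2 (2.34), HMOX1 (1.78) and SLC48A1 (-0.90). With DMSO 1 was higher, HMOX1 (2.39), and 3 were lower, among them TALDO1 (-0.57) and FTH1 (-0.56), against 6.67% and 5.75% of all genes. Of 10 genes of glutathione synthesis and turnover, CHAC1 was the only one called with Tpc + OL9-119 in WT cells, against untreated or Tpc-treated cells. Over all genes 4.07% and 0.18% were called in these 2 comparisons. GLUL (0.34, adjusted p = 0.00338), the enzyme that makes glutamine, was among those called higher in untreated PARP1-KO cells.

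**Figure D4:**
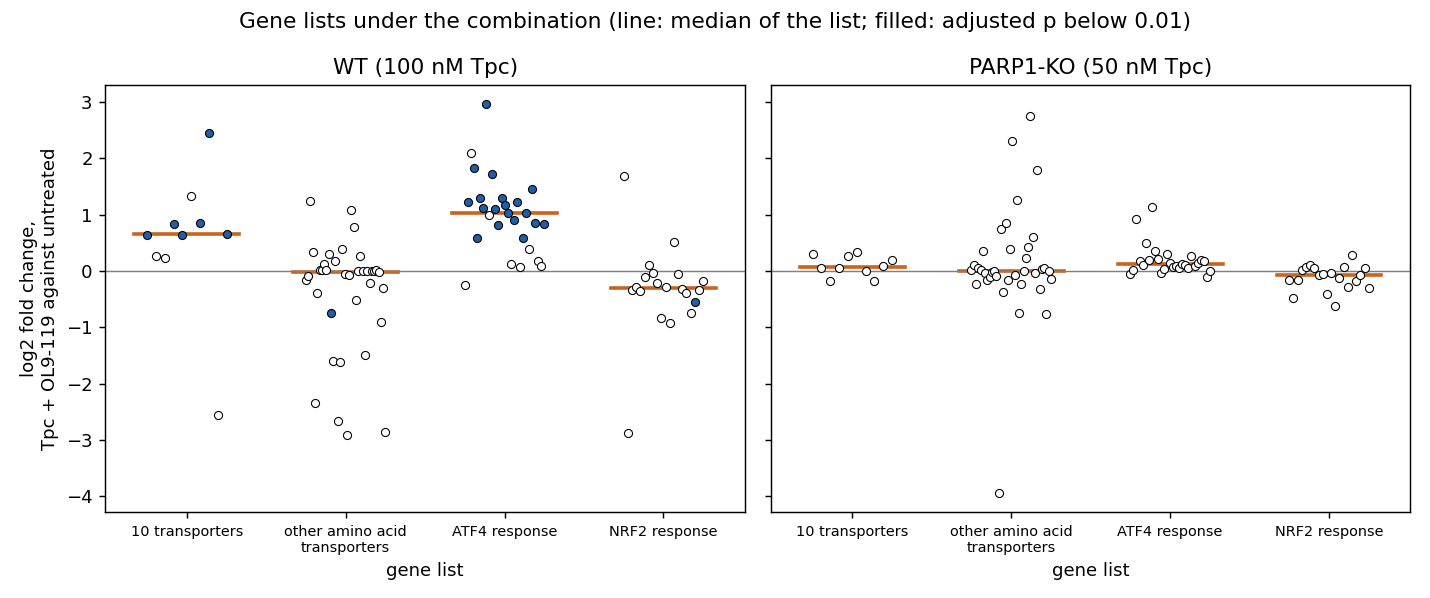
Log2 fold changes with Tpc + OL9-119 against untreated cells (y axis) for the 10 transporters and 3 other gene lists (x axis) in WT (left) and PARP1-KO cells (right), 1 point a gene, with the median of each list as a line and filled points where the adjusted p was below 0.01. In WT cells 6 of 10 transporters and 19 of 27 ATF4 response genes are filled, all above 0, while in PARP1-KO cells no point is filled. Unfilled points far from 0 are genes of low count, SLC7A3 among them. The members and lists were chosen with earlier results of these data known.

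As a description over the 40 libraries, which share treatments and genotypes, the genes whose log2 CPM followed that of SLC7A11 most closely among 12160 genes with a mean of at least 50 counts were BLTP3A (Pearson's r = 0.898), the mitochondrial folate enzyme MTHFD2 (0.847), the NKG2D ligand ULBP1 (0.815), CHAC1 (0.806) and the stress-induced inhibitor of mTORC1 signalling SESN2 (0.799). SLC7A5 was sixth in that order (0.796) and SLC7A1 eighth (0.79), ahead of SLC38A2 (0.684), SLC6A9 (0.631) and SLC3A2 (0.63). SLC38A1 (0.359) and SLC1A5 (0.258) followed it least apart from SLC7A3. Within the 20 WT libraries SLC38A2 (0.941), SLC7A1 (0.918) and SLC7A5 (0.911) lay closest to it, whereas within the 20 PARP1-KO libraries the values ran from -0.727 for SLC1A5 to 0.633 for SLC38A1.

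For 4 members a gene on the opposite strand shares their sequence, and the strand setting of the counting was not given in the sources used here, so part of their counts may come from the partner. These were SLC7A11 (SLC7A11-AS1), SLC7A5 (ENSG00000260466), SLC1A5 (ENSG00000275719) and SLC6A9 (CCDC24). Of these partners, CCDC24 was at 2.54 to 16.5 CPM and ENSG00000275719 at 0 to 6.58 CPM, so CCDC24 lay in the range of SLC6A9 itself, and how much they add to the members' values was not tested.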

How the data were processed

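Poly(A) RNA of 40 libraries, 10 conditions with 4 libraries each, was prepared with a directional kit. The deposited values are whole counts of reads per gene, which the authors made with STAR 2.7.8 (gene counts, hg38, Ensembl annotation). The submitters' processing notes also name FastQC 0.11.9 and Picard 2.26.6, and the strand setting is not given in the sources used here. From these counts, edgeR 4.0.16 (R 4.3.3, limma 3.58.1) was run with TMM scaling and its quasi-likelihood test on 28922 genes with at least 10 counts in sum, with all 40 libraries in 1 model and 1 group per condition. A gene was called at a Benjamini-Hochberg adjusted p below 0.01, after the study's threshold. DESeq2 1.42.0 was an alternative. The test was tested on simulated data first.

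The members and gene lists were chosen with earlier results of these data known. The response to OL9-119 alone chose the members and is described only. The text names the 10 transporters, PARP1, the 5 genes closest to SLC7A11 by correlation among genes with a mean of at least 50 counts and, per list and comparison, at most the 4 called genes with the largest change. The labels call the genotype a knockdown in 1 field and a knockout in the sample names. Promoter sequences are RefSeq's (GRCh38.p14), and gene lengths are from GENCODE 44. Counting error is smaller at higher depth, and the SD and SE given include it. Some genes that met the rule for naming are not reported here.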

Additional observations from a re-analysis of the deposited data

Results flagged for a closer look

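Of 100 groups of 4 libraries, 9 held a library far from the other 3 by Dixon's criterion at 95%, which chance alone gives in about 1 of 20 groups. SLC7A1 was at 185 CPM in WT OL9-119 replicate 2 (the others 263 to 268) and at 210 CPM in PARP1-KO DMSO replicate 3 (the others 234 to 239). The same PARP1-KO DMSO library was low in SLC1A5 at 354 CPM (the others 406 to 409) and high in SLC38A2 at 878 CPM (the others 676 to 700). SLC6A9 was at 4.35 CPM in WT Tpc replicate 2, below the others at 9.28 to 9.32 CPM. SLC7A3, with few counts anywhere, was at 2.2 CPM in WT untreated replicate 1, at 0.318 CPM in WT OL9-119 replicate 3, at 0.549 CPM in WT Tpc + OL9-119 replicate 4 and at 0.52 CPM in PARP1-KO Tpc + OL9-119 replicate 2.

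The change with Tpc + OL9-119 differed between the genotypes by the test of the difference itself for SLC7A11 (-2.63 on the log2 scale, PARP1-KO minus WT) and for SLC38A2 (-0.77). The dose of Tpc differed between the genotypes, so genotype and dose cannot be told apart.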

How the results depend on the processing

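No called result reversed its direction under the alternatives run. Of the values that answer a comparison, 283 stayed close to those reported and 57 moved. With DMSO-treated cells as comparator, Tpc in WT cells called 1 member and its genotype difference 1. With a log2 change of at least 1 required, the counts were 1 (genotypes untreated), 3 (genotypes with DMSO), 0 (Tpc in WT), 1 (combination in WT) and 1 (genotype difference of the combination). For Tpc + OL9-119 against Tpc in WT cells, the count of 1 became 2 at an adjusted p below 0.05, 2 with RLE scaling, 3 with no filter, 2 with the replicate block, 3 with length and GC offsets, 2 with only the compared libraries fitted and 3 with DESeq2. For the genotype difference of that step, the count of 0 became 1 under each of these 7 and with the library name prefix as batch. Over all genes the comparison against Tpc called 52 in the main fit and 52 with RLE scaling. It called 79 with no filter, 59 with the replicate block, 88 with the offsets and 99 with DESeq2. The genotype difference of Tpc called 1 with no filter (44 over all genes) and 1 with length and GC offsets (43). That of the combination called 1 with filterByExpr (79) and 4 with the offsets (110). With only the compared libraries fitted, genotypes with DMSO called 4 and Tpc in WT 0.

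Chosen after seeing the data, the number of detected genes as a covariate gave 5 (genotypes with DMSO, 3089 over all genes), 3 (combination against Tpc in WT, 77) and 1 (genotype difference of that step, 5). Leaving out the 11 libraries of low complexity gave 4, 4 and 1 for these, and 1 for the genotype difference of Tpc. Leaving out 1 library at a time gave 6 to 8 members between genotypes with DMSO, 0 to 2 for Tpc in WT, 4 to 6 for the combination in WT, and 0 to 1, 1 to 3 and 0 to 1 for the genotype differences of Tpc, of the combination and of the combination against Tpc. The deviations of same-numbered libraries had correlations of -0.208 to 0.461, with every one over 0.1 in 0 of 10 comparisons. Their mean was lowest between genotypes with DMSO (-0.0693, against 0.0172 for different numbers). It was highest for DMSO against untreated WT cells (0.15, against -0.0358 for different numbers). In WT cells the replicate numbers followed the library name prefix. Whether the numbers mark a pairing was not tested. With the replicate block SLC7A11 rose by 2.43 with the combination in WT cells (adjusted p = 1.68e-14). Genes of low count, SLC7A3 and in some libraries SLC6A9, are limited by depth.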
